A study of Mus musculus with 89 samples.

Results

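Sparc, Dcn, Lum, Fn1, Postn and Mmp2 are 6 of the 19962 targets of a mouse whole-transcriptome tag panel, taken by name as the matrix genes, other than collagens, that stromal fibroblasts make. They were followed in 89 segments of mouse squamous cell carcinoma, in which the series asks how neutrophils in separate regions of the tumour respond to immunotherapy. Each segment was a small area of a fresh frozen section, picked on an antibody-stained image, from which ultraviolet light freed the tags bound to RNA so that they could be sequenced. The labels call all 89 segments neutrophil, and the deposited annotation places them in 7 classes of stage and location. The naive slide held 15 stroma segments, 13 at the interface with the tumour and 14 within the tumour. The acute slide held 9 stroma and 2 interface segments, and the relapse slide held 14 stroma and 22 interface segments. Stage cannot be told apart from slide, since every stage has a slide of its own, and the annotation also names the relapse slide by a word for treatment. The scan name of the naive slide holds "UP HRass" and that of the relapse slide "DMBA Relapse", which differ in the tumour model they name. Strain, age, the agent and its dose, and the number of animals and tumours are not given in the sources used here.

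The 6 genes cover several jobs in connective tissue. Sparc (osteonectin) and Postn (periostin) are matricellular proteins, which bind collagen and cells without being the main load-bearing fibres, and periostin is also known for helping lysyl oxidase crosslink collagen. Dcn (decorin) and Lum (lumican) are small leucine-rich proteoglycans that sit on collagen fibrils and set their width and spacing. Fn1 (fibronectin) forms fibrils that cells hold through integrins, and Mmp2 (gelatinase A) is a secreted protease that cuts basement membrane collagen and denatured collagen. In skin these genes are best known from dermal fibroblasts, and in carcinoma from the fibroblasts around the tumour.

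In the RefSeq annotation of GRCm38.p6 all 6 are protein-coding. Sparc lies at chr11:55394159-55420080, Postn at chr3:54359267-54391041, Fn1 at chr1:71585473-71653280 and Mmp2 at chr8:92827290-92853421. Dcn at chr10:97479500-97518163 and Lum at chr10:97565501-97572703 lie near each other on chromosome 10. RefSeq start windows matched 2 of the 6, Postn and Sparc, and did not match Dcn, Lum, Fn1 and Mmp2. The windows printed here are the 250 bases before a start, shown for the 2 members that matched. No link between these sequences and the levels of the genes was tested. The Postn window is on the plus strand at chr3:54360857-54361106, the second of its listed starts, and the Sparc window is on the minus strand at chr11:55420081-55420330. Capitals mark the letters TATAAA, the core of a TATA box.
Postn: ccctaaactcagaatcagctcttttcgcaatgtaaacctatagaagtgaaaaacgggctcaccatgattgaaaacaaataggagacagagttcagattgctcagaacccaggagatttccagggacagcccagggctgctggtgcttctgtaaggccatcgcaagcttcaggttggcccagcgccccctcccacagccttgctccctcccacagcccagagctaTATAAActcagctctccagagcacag
Sparc: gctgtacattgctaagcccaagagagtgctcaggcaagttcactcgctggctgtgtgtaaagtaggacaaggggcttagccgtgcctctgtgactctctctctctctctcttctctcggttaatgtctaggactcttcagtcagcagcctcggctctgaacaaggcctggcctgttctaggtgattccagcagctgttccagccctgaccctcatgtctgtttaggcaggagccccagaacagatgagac
The Postn window held TATAAA 26 bases before its start, and the Sparc window did not hold it. The window before the other listed Postn start, at chr3:54359017-54359266, held none of the 4 motifs searched. Searched on both strands, TATAAA was in 12.4% of all 32851 windows of this length. The other motifs searched were in neither printed window. They were CCAAT, found in 33.8% of all windows, GGGCGG in 32.7%, and TGANTCA in 6.75%, and none of the 4 motifs contains another.

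The counts were small, and this sets what can be read from them. A segment held between 573 and 208675 counts above the floor of 1 count per target, with a median of 7216, and the class medians ran from 3570 at the relapse interface to 64652 in acute stroma. A single count was therefore worth 2.80 counts per 10000 in a typical relapse interface segment and 0.155 in a typical acute stroma segment. Levels below are given as counts and as counts above the floor per 10000, and they are not compared between genes, since each target has its own probe. The limit of quantitation was passed by Postn in 49.4% of segments, by Sparc in 48.3%, by Mmp2 in 39.3%, by Lum in 37.1%, by Dcn in 25.8% and by Fn1 in 24.7%. All 6 passed the filter of 10% of segments, as did 5087 targets in all. Of 12 neutrophil markers 2 passed it, and the 12 summed to class medians between 5.83 and 13.2 counts per 10000.

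Naive stroma held the highest typical share of all 6 genes. Together they made up a median of 0.522% of the counts of a naive stroma segment, against 0.0446% at the naive interface and 0.0188% within the naive tumour. All 6 were above the floor in 10 of 15 naive stroma segments and in 0 of 14 segments within the tumour, where 5 segments had every one of them at the floor. On raw counts the order differs, because acute segments were deeper: none of the 6 had its highest median count in naive stroma, and all 6 had their highest median per 10000 there. Between neighbouring classes in the order of pooled levels per 10000, the ranges over segments overlapped in 36 of 36 pairs.

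**Figure D1:**
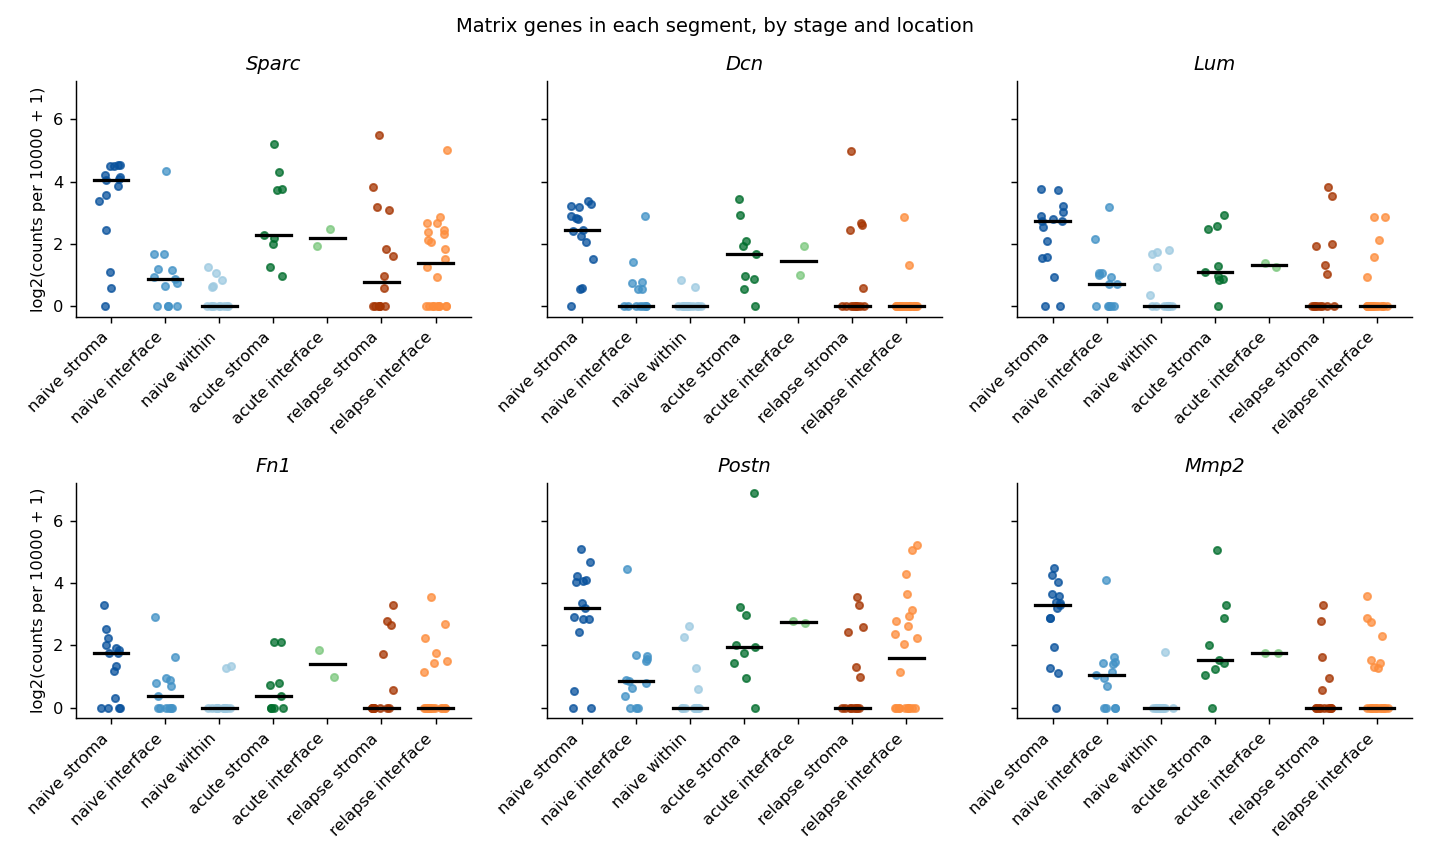
Each point is 1 of 89 segments, with the stage and location class on the horizontal axis and log2(counts per 10000 + 1) on the vertical axis, and the black bar is the class median. The naive stroma median is the highest of the 7 classes for each of the 6 genes, and points at 0 are segments with the gene at the floor of 1 count.

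Among the matricellular genes, Sparc ran from 1 to 130 counts in naive stroma with a median of 15, or 0 to 22.3 per 10000 with a median of 15.6. At the naive interface it ran from 1 to 13 counts, with a median of 3 counts and of 0.839 per 10000, and within the tumour from 1 to 3 counts, with 9 of 14 segments at the floor. The highest interface segment stood at 19.4 per 10000, above the stroma median, and the highest within the tumour at 1.39, while the lowest stroma segment was at the floor. Sparc in acute stroma had a median of 20 counts, or 3.83 per 10000, and the 2 acute interface segments gave 15 and 24 counts. In relapse stroma Sparc ran from 1 to 11 counts and at the relapse interface from 1 to 6, with medians of 0.715 and 1.63 per 10000.

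Postn ran from 1 to 80 counts in naive stroma, with a median of 15 counts and of 8.18 per 10000. Its median was 0.795 per 10000 at the naive interface, and 10 of 14 segments within the tumour were at the floor. In acute stroma it ran from 0 to 117.9 per 10000 with a median of 2.83. The highest of these was a shallow segment with 37 counts of Postn. The 2 acute interface segments held 29 and 31 counts of Postn. At the relapse interface Postn was above the floor in 12 of 22 segments, with a highest count of 7 and a median of 2.19 per 10000, and in relapse stroma in 6 of 14, with a highest count of 5. Pooled over the class, Postn stood at 4.23 per 10000 at the relapse interface and 1.75 in relapse stroma. In relapse piece 3, which holds both locations, it was 2.43 at the interface and 2.03 in stroma.

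The proteoglycan Dcn ran from 1 to 79 counts in naive stroma with a median of 5, or 4.46 per 10000. It was at the floor in 7 of 13 naive interface segments, 12 of 14 within the tumour and 20 of 22 at the relapse interface. The 2 relapse interface segments above the floor had 2 counts each, so pooled Dcn there was 0.197 per 10000, below the 0.295 that a count of 3 over the class would give. In relapse stroma Dcn reached 8 counts and 30.7 per 10000, with 9 of 14 segments at the floor. Its neighbour Lum ran from 1 to 63 counts in naive stroma with a median of 6, or 5.58 per 10000. Lum was at the floor in 5 of 13 naive interface segments, 9 of 14 within the tumour, 8 of 14 in relapse stroma and 17 of 22 at the relapse interface. Acute stroma held medians of 7 counts for Dcn and 7 for Lum.

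Fn1 was the weakest of the 6 by its share of segments above the limit of quantitation. It ran from 1 to 26 counts in naive stroma with a median of 4, or 2.37 per 10000, and was at the floor in 12 of 14 segments within the tumour. Mmp2 ran from 1 to 81 counts in naive stroma with a median of 9, or 8.93 per 10000, and 14 of 15 segments exceeded the limit of quantitation. Within the naive tumour Mmp2 was above the floor in 1 of 14 segments, with 2 counts, which is the fewest for any member in any class. Pooled over that class it was 0.0830 per 10000, where 3 counts would have given 0.249.

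Location within the naive slide was tested with limma on log2(deposited signal + 1), with Benjamini-Hochberg adjustment over 5087 targets. Segments come from shared tumours and animals that are not named, which makes every p-value here smaller than it should be. At the interface all 6 genes were lower than in stroma, beside 10.5% of all tested targets that were called lower. The log2 differences were -2.34 for Sparc (SE 0.344, adjusted p = 9.01e-08), -1.95 for Mmp2 (SE 0.301, adjusted p = 3.72e-07) and -1.89 for Dcn (SE 0.281, adjusted p = 1.2e-07). They were -1.86 for Postn, -1.55 for Lum and -0.99 for Fn1, with adjusted p = 8.17e-05, 1.3e-05 and 0.00408. The median over all tested targets was -0.15 and that over the members -1.87. In counts per 10000 the classes overlapped for every member in all 8 comparisons between classes, with 0 of 48 pairs apart. These values are scaled to each segment's own counts. Fewer cells of a type, less RNA per cell and more RNA of other kinds cannot be told apart in them.

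Within the naive tumour all 6 were again lower than in stroma, beside 3.44% of tested targets called lower. The log2 differences were -2.66 for Sparc (SE 0.338, adjusted p = 3.31e-10), -2.52 for Mmp2 (SE 0.295, adjusted p = 1.27e-11) and -2.20 for Postn (SE 0.357, adjusted p = 1.13e-06). Dcn stood at -1.82, Lum at -1.66 and Fn1 at -0.91, with adjusted p between 1.57e-07 for Dcn and 0.0164 for Fn1. Between the interface and the inside of the tumour none of the 6 passed (limma, 3 of 5087 targets or 0.059% called). There the Mmp2 difference was -0.57, with a 95% interval from -1.18 to 0.03, and the Sparc difference was -0.32, from -1.01 to 0.37. At equal totals Mmp2 was at -0.94 (-1.75 to -0.14, adjusted p = 0.444) and Sparc at -0.70 (-1.65 to 0.24), and again none of the 6 passed, where the smallest limma adjusted p over all 5087 targets was 0.161.

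A target at the floor still has a deposited signal, 1 count divided by the segment's scaling factor, so undetected genes carry that factor. The same fits were therefore run on counts above the floor brought to the same total per segment. On this scale 5 of the 6 genes were lower at the naive interface, beside 0.806% of targets, and Fn1 did not pass (log2 difference -0.71, adjusted p = 0.465). All 6 were lower within the tumour, beside 2.97% of targets. Sparc there was at -2.99 and Mmp2 at -2.77, sizes close to those on the deposited signal. The rescaling shifted the median of all tested targets at the naive interface from -0.15 to 0.05 and within the tumour from -0.01 to -0.13.

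**Figure D2:**
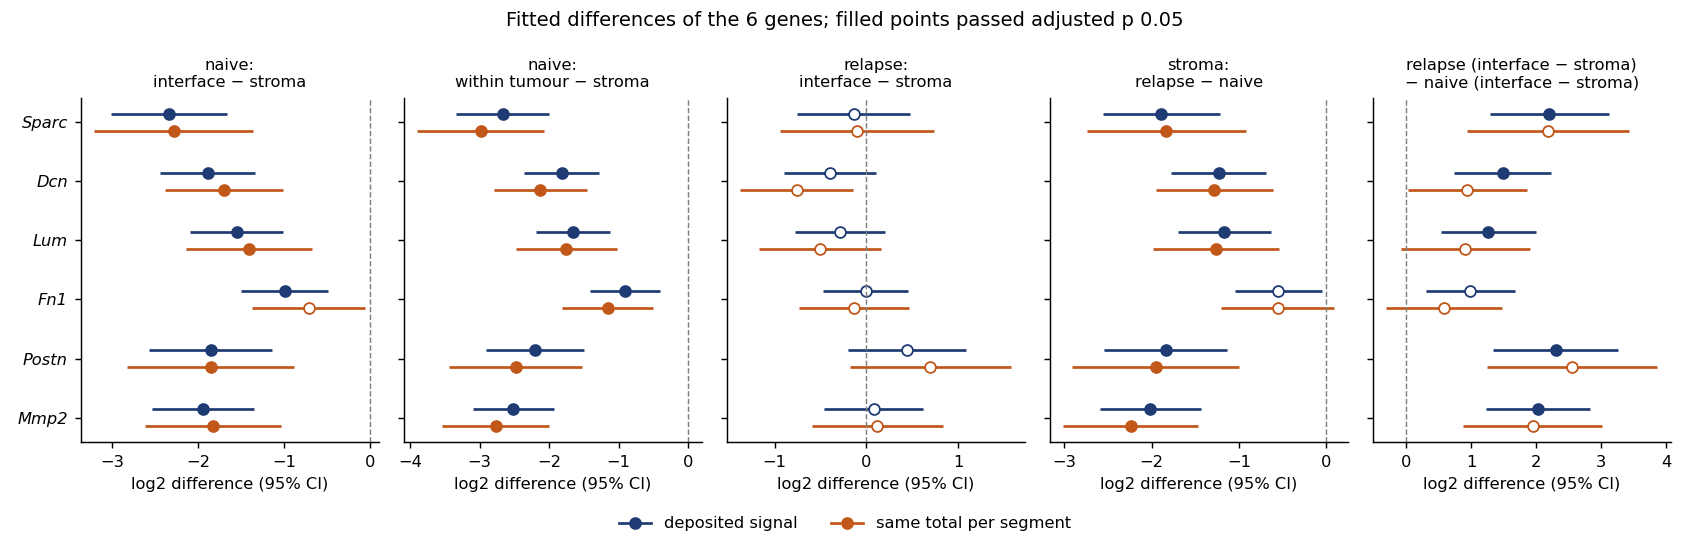
Points are limma log2 differences of the 6 genes in 5 comparisons with 95% confidence intervals, on the deposited signal (blue) and after each segment was brought to the same total (orange); filled points passed an adjusted p of 0.05 and the horizontal scales differ between panels. All 6 blue points are filled and negative in both naive panels, none is filled for relapse interface against stroma, and 5 blue and 0 orange points are filled in the last panel.

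Location and tissue piece overlapped on the naive slide. Pieces were read, after the data had been seen, from gaps of more than 8000 pixels between region coordinates, since the annotation names none. Of the 13 naive interface segments, 8 lay in piece 5 and 4 in piece 2, while piece 5 held 2 of the 15 stroma segments and piece 2 held none. The 2 stroma segments of piece 5 had summed levels of the 6 genes of 4.30 and 4.39 per 10000, inside the 2.52 to 4.92 of the 8 interface segments beside them. The stroma of pieces 1, 3 and 4 ran from 9.60 to 86.2. The only interface segment of piece 1 stood at 77.6, above the 3 stroma segments of that piece at 31.9, 45.9 and 62.7. The same segment held 14 counts of Postn, 13 of Sparc, 11 of Mmp2, 6 of Lum, 5 of Dcn and 5 of Fn1.

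With piece as a fixed term, so that locations were compared inside pieces, none of the 6 genes passed at the interface (limma, 11 targets called). The differences were then -1.46 for Lum, -1.41 for Sparc, -1.37 for Dcn, -1.31 for Mmp2, -0.36 for Postn and -0.11 for Fn1, with adjusted p from 0.0563 to 0.935. Within the tumour the same fit had 4 genes below stroma, beside 54 targets called, with Mmp2 at -2.06, Sparc at -2.01, Lum at -1.64 and Dcn at -1.50 and adjusted p from 1.51e-05 to 0.00229. Postn at -1.08 and Fn1 at -0.30 did not pass. Without piece 5, Sparc, Dcn and Mmp2 passed at the interface and Lum, Postn and Fn1 did not, with 58 targets called. In piece 1 the 3 stroma segments held 31.9 to 62.7 summed counts per 10000, and of the 3 within the tumour, 2 were at 0 and 1 at 5.21. In piece 4 the 4 stroma segments ran from 9.60 to 59.1 and the 2 within the tumour stood at 0 and 3.74. In piece 5 the locations were not apart, since its 7 segments within the tumour ran from 0 to 6.99, on both sides of its 2 stroma segments.

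**Figure D3:**
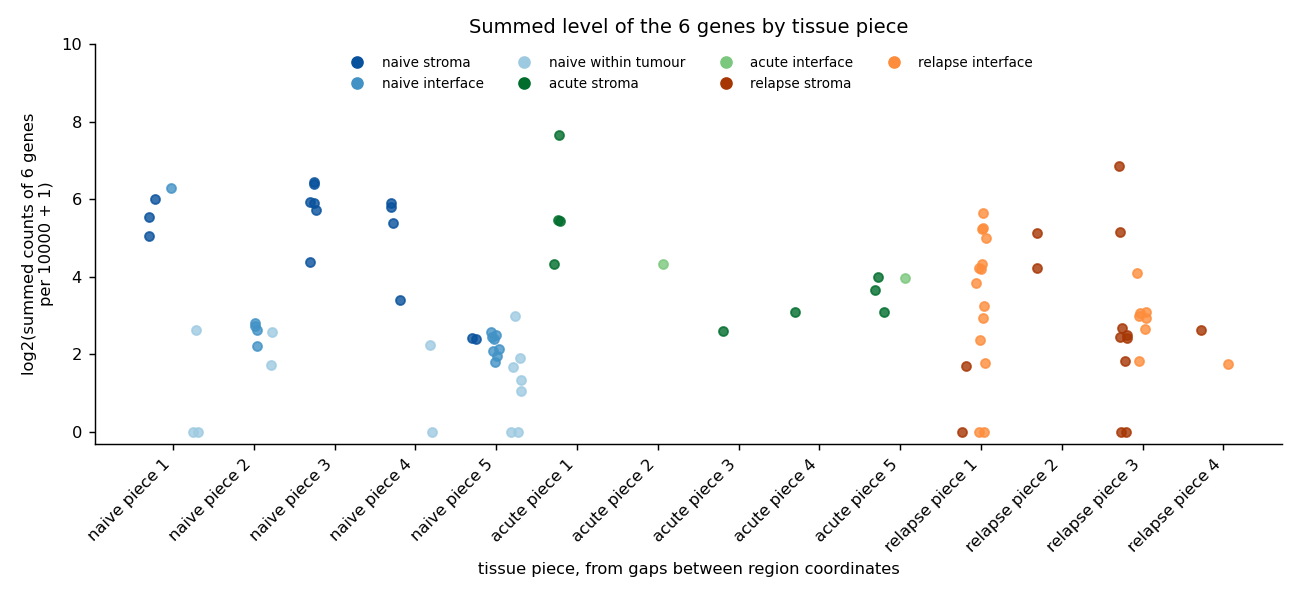
The horizontal axis gives the 14 tissue pieces read from region coordinates, and the vertical axis log2(summed counts of the 6 genes per 10000 + 1) of each of 89 segments, coloured by class. In naive piece 5 the stroma points lie among the interface points and inside the range of the segments within the tumour, while in naive pieces 1 and 4 the stroma lies above the segments within the tumour.

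On the relapse slide the gap between stroma and interface was not detected. None of the 6 genes passed (limma, 0% of 5087 targets called, 131 at an unadjusted p under 0.05). Postn was at 0.44 (95% interval -0.20 to 1.09), or -0.22 without relapse piece 1, and Dcn stood at -0.40 (-0.90 to 0.10), both with adjusted p = 1. The intervals of Sparc (-0.75 to 0.47), Lum (-0.78 to 0.20), Fn1 (-0.47 to 0.45) and Mmp2 (-0.46 to 0.62) also held 0. On the deposited signal none of these intervals reached -1, where at the naive interface 5 of the 6 genes had fallen by more than 1. At equal totals 2 did: the Dcn interval ran from -1.37 to -0.14 (adjusted p = 0.493) and that of Lum from -1.16 to 0.16. No interval other than that of Dcn lay clear of 0 on that scale. In relapse stroma the median signal of each of the 6 genes was 3.74, which is also the median worth of 1 count there. A fall like the naive one therefore had little room to show on the deposited signal. Intervals short of -1 cannot say whether the relapse gap was smaller.

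The difference between these gaps was tested as an interaction, the relapse interface minus stroma less the naive interface minus stroma. It was positive for all 6 genes and called for 5, beside 4.07% of targets called higher. In relapse stroma each gene was at the floor in 6 to 9 of 14 segments, against 1 to 4 of 15 in naive stroma. A fall from stroma to interface therefore had less room to show on the relapse slide. The part of this floor in the interaction was not tested. Postn was at 2.30 (SE 0.490, adjusted p = 0.00162), Sparc at 2.20 (SE 0.464, adjusted p = 0.00155) and Mmp2 at 2.03 (SE 0.406, adjusted p = 0.000858). Dcn was at 1.49 and Lum at 1.26, with adjusted p = 0.0101 and 0.0295, and Fn1 at 0.98 did not pass (adjusted p = 0.0837). With each segment brought to the same total none of the 6 passed (limma, 3 targets called), with Postn at 2.55 (adjusted p = 0.0895) and Sparc at 2.18 (adjusted p = 0.134), and the median of all tested targets moved from 0.19 to -0.08. None passed either without naive piece 5 or without relapse piece 1, where Sparc stood at 1.92 and 2.01 and 13 and 16 targets were called in place of 213, and 1 passed without relapse piece 3, beside 18.

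In stroma, relapse segments held less of these genes than naive ones. Sparc, Postn, Mmp2, Dcn and Lum were lower, beside 1.26% of targets called lower. Mmp2 stood at -2.01 (SE 0.295, adjusted p = 2.5e-07), Sparc at -1.89 (SE 0.338, adjusted p = 6.32e-05) and Postn at -1.84 (SE 0.357, adjusted p = 0.000293). Dcn stood at -1.23 and Lum at -1.17, with adjusted p = 0.00273 and 0.00385, and Fn1 at -0.55 did not pass (adjusted p = 0.388). The same 5 genes were lower at equal totals, beside 1.63% of targets. Relapse stroma was not uniformly low: its summed level ran from 0 to 113.9 per 10000, and the highest segment held all 6 genes above the floor, with 11 counts of Sparc and 8 of Dcn.

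The comparison of relapse with naive stroma rests on 1 slide a stage and on plates that differ. Plate is here the letter G or H in the sample titles, which do not call it a plate. Plate G held the naive segments and plate H those of relapse. Plate as a term can be set apart only through acute stroma (4 segments on G, 5 on H). With it 0 of 6 passed, beside 8 targets called in place of 71. The differences then ran from -1.93 for Mmp2 to -0.71 for Fn1. Without relapse piece 3, 2 of the 6 passed, beside 13 targets called in place of 71. Without naive piece 1 or naive piece 3, 3 did, beside 37 targets in each case.

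None of the 6 genes passed between acute and naive stroma (limma, 0.0197% of targets called, 583 targets at an unadjusted p under 0.05), although all 6 differences were negative, from -0.87 for Fn1 to -0.44 for Postn. Among the stroma classes Fn1 had its lowest mean log2 signal in acute stroma, 2.22 against 2.54 in relapse and 3.10 in naive stroma. Its relapse minus acute difference was not called (limma, 0.32, adjusted p = 0.584), nor at equal totals (0.11, adjusted p = 0.945). A count of 1 was worth a median signal of 0.748 in acute and 3.74 in relapse stroma. Segments at the floor therefore read lower in acute stroma on the deposited signal. Acute stroma differed between pieces. The 4 segments of acute piece 1 ran from 18.96 to 199.7 summed counts per 10000 and the other 5 acute stroma segments from 5.04 to 14.9. Without acute piece 1, 3 of the 6 genes passed against naive stroma, beside 162 targets called in place of 1, and without naive piece 5, 1 did, beside 34.

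Between relapse and acute stroma, Sparc (-1.41, adjusted p = 0.0345) and Mmp2 (-1.30, adjusted p = 0.0305) passed, beside 0.649% of targets called lower, while Postn at -1.39 did not (adjusted p = 0.0521). On the deposited signal 78 targets were called in either direction. None of the 6 passed at equal totals (68 targets called) or with piece as a random block (32). Nor did any with depth (50) or plate (146) as a covariate. None passed without acute piece 1 (302 targets called), relapse piece 1 (18) or relapse piece 3 (6). Without acute piece 4 (32) or acute piece 5 (12), 1 passed. Class depths differed most in this comparison, with medians of 64652 counts in acute and 3964 in relapse stroma. At the interface none of the 6 genes passed between relapse and naive, beside 9.77% of targets called. There the Postn difference was 0.46 (95% interval -0.20 to 1.12), and the Mmp2 difference was 0.01 (-0.54 to 0.56). The comparisons share class means, so their values are not independent.

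Pooled over each class, the make-up of the 6 genes' counts differed between interface and stroma at every stage, most on the relapse slide. This is a description without a test. In naive stroma Sparc made up 29.5% of their 1559 pooled counts, Postn 20.1% and Dcn 13.3%, and acute stroma gave 28.4%, 20.8% and 16.3% of 1204. At the relapse interface Postn made up 41.7% of 103 counts and Dcn 1.94%, which are 43 and 2 counts, while relapse stroma held 15 counts of each among 96. Postn was above the floor without Dcn in 11 of 22 relapse interface segments, Dcn without Postn in 1, both in 1 and neither in 9. In relapse piece 3, which holds both locations, the 7 interface segments had 10 counts of Postn and 0 of Dcn, and the 9 stroma segments had 12 and 10. In relapse piece 1 the 14 interface segments had 33 and 2. The 2 acute interface segments, with 58 counts of Postn and 19 of Dcn, also had a larger Postn share (33.9%) than acute stroma. The naive interface leaned the same way against naive stroma, with Postn at 26.2% and Dcn at 7.49% of 187 counts. There Postn was above the floor without Dcn in 5 of 13 segments, and Dcn without Postn in 1. Within the naive tumour the 6 genes summed to 33 counts, too few to read a make-up from.

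**Figure D4:**
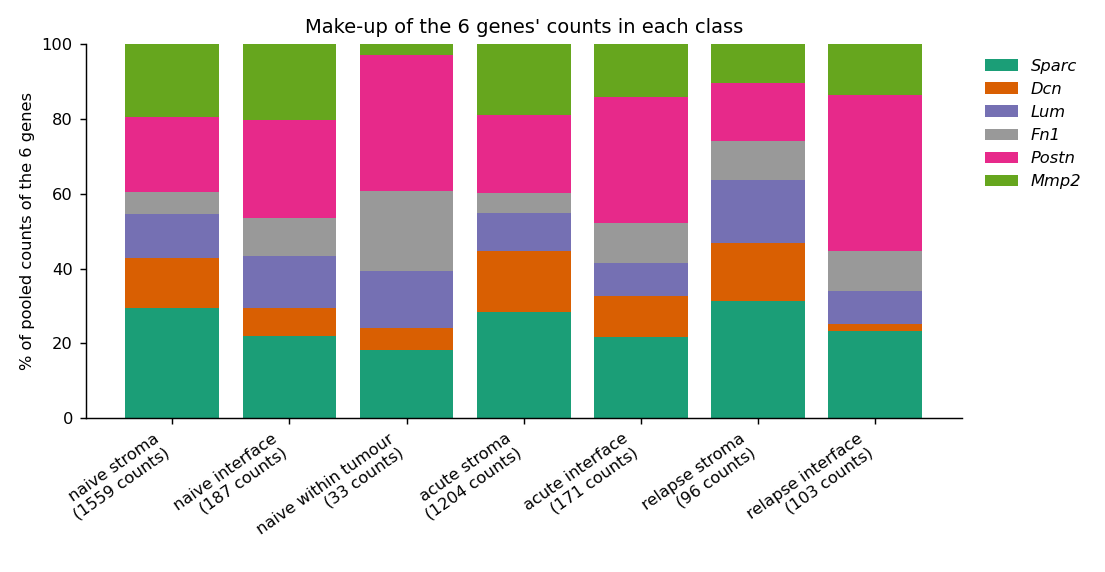
Bars split the pooled counts above the floor of the 6 genes in each class into percentages by gene, with the number of counts under each class. Postn takes 41.7% of 103 counts at the relapse interface against 15.6% of 96 in relapse stroma, and Dcn 1.94% against 15.6%. At the naive interface Postn takes 26.2% of 187 counts against 20.1% in naive stroma, and Dcn 7.49% against 13.3%. Each gene has its own probe, so heights are compared across classes only.

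Other matrix genes were followed through 7 lists of 135 genes, of which 70 were tested and none is a member. At the naive interface 37 of the 70 were lower than stroma and 0 higher, beside 10.5% of all tested targets called lower. The median over the 70 was -0.60. By list, lower genes numbered 10 of 14 collagens, 3 of 5 small leucine-rich proteoglycans, 11 of 20 matricellular genes and glycoproteins, 4 of 8 crosslinking and collagen-processing genes and 7 of 13 proteases and inhibitors. The matrix receptors had 1 of 7 lower and the TGF-beta ligands and receptors 1 of 3. The largest log2 differences were -3.24 for Col3a1, -2.60 for Col1a2 and -2.38 for Col1a1, chains of the main fibrillar collagens of skin, and -1.92 for the proteoglycan Bgn (adjusted p from 3.91e-09 to 2.38e-05). All 4 of these also passed at equal totals. On that scale only 41 of all 5087 targets were called lower (0.806%), and the number of list genes among them is not given here.

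Within the naive tumour 19 of the 70 were lower than stroma and 0 higher, beside 3.44% of all tested targets called lower. They were 8 collagens, 2 proteoglycans, 4 matricellular genes and glycoproteins, 1 processing gene and 4 proteases or inhibitors. Col1a1 stood at -4.43, Col3a1 at -4.32, Col1a2 at -3.03 and Bgn at -2.31. Col1a1 was also the only list gene below the interface inside the tumour (-2.05, adjusted p = 0.0345), though not at equal totals (-1.82, adjusted p = 0.276). In relapse against naive stroma 8 of the 70 were lower, 5 of them collagens, and 0 higher, beside 1.26% of all tested targets called lower. Col1a1 stood at -2.99, Col3a1 at -2.90, Col1a2 at -2.26 and Bgn at -1.55, and Bgn did not pass at equal totals (adjusted p = 0.0697).

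The interaction was called positive for 16 of the 70, 8 of them collagens, beside 4.07% of all tested targets. It was led by Col3a1 at 3.16, Col1a1 at 2.70, Col1a2 at 2.41 and Bgn at 2.07, and at equal totals Col3a1 (3.55, adjusted p = 0.0151) and Col1a1 (3.18, adjusted p = 0.0195) passed. At the relapse interface against the naive one 8 of the 70 were higher, near the share over all targets, where 476 of 5087 were higher. The largest were the hyaluronan receptor Cd44 at 0.81, the basement membrane collagen Col18a1 at 0.75, the processing enzyme P4hb at 0.73 and the basement membrane protein Nid2 at 0.61. None of these 4 passed at equal totals. In this comparison the scale decides the direction of most calls: 476 targets were higher and 21 lower on the deposited signal, and 26 higher and 154 lower at equal totals, with medians over all targets of 0.22 and -0.25. No list gene passed in relapse interface against relapse stroma (limma, 0 of 5087 targets), acute against naive stroma or relapse against acute stroma.

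Across the 89 segments the 6 genes varied together. Pearson's r between pairs on log2(counts per 10000 + 1) ran from 0.31 (Lum and Fn1) to 0.76 (Sparc and Dcn) over 15 pairs, with a median of 0.57. After class means were removed it ran from 0.19 to 0.66 with a median of 0.44, so likeness was also present within classes. The segments share slides, pieces and depth, and these are descriptions. The 8 other tested targets most like the mean of the 6 were Col1a2 (r = 0.79), Serpina3n (0.76), Col3a1 (0.76), Col1a1 (0.75), Fstl1 (0.75), Gpx3 (0.75), Sfrp1 (0.74) and Bgn (0.74). Of these, 6 were among the 8 most alike on the deposited signal as well. Sparc was most like Serpina3n (0.82) and Col1a2 (0.79), Dcn most like Sparc (0.76) and Serpina3n (0.72), and Lum most like Col1a2 (0.70) and Apod (0.69). Fn1 was most like Fstl1 (0.66) and Gpx3 (0.57), Postn most like Mmp2 (0.67) and Col1a1 (0.66), and Mmp2 most like Fstl1 (0.72) and Bgn (0.69).

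The fibroblast and macrophage marker lists had their highest medians in naive stroma, as the members did, and the other lists did not. The 12 fibroblast markers, of which 4 are also in the matrix lists and none is a member, summed to a median of 204.9 counts per 10000 in naive stroma (18.9 to 340.9), 15.8 at the naive interface (7.93 to 305.6) and 7.90 within the naive tumour (0 to 41.3). Pooled over naive stroma, most of that sum came from Col1a1 at 67.3, Col3a1 at 42.4 and Col1a2 at 17.2 per 10000, which stood at 2.82, 1.16 and 0.415 within the tumour. Pdgfrb, at 0.591 in naive stroma and 0.581 within the tumour, and Thy1, at 1.11 and 0.996, differed little between the same classes. Dpt, a dermal fibroblast gene of that list, was at the floor in all 14 segments within the tumour. Their median was 36.8 in acute stroma, 19.95 in relapse stroma and 36.95 at the relapse interface. The 8 macrophage markers also had their highest median in naive stroma, 21.5 (1.91 to 53.3), against 4.23 (2.18 to 63.1) at the naive interface and 3.11 (0 to 150.8) within the tumour. The 11 keratinocyte markers had medians of 9.60 in naive stroma, 8.95 at the naive interface and 14.3 within the tumour, and of 70.3 in relapse stroma (17.7 to 128.5) and 136.9 at the relapse interface (24.4 to 369.6). The 6 pericyte and smooth muscle markers had class medians between 2.02 and 4.74, the 5 endothelial markers between 0 and 3.46, and the 7 skeletal muscle markers between 0.538 and 15.5. The part of these cells in the members' levels was not tested.

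**Figure D5:**
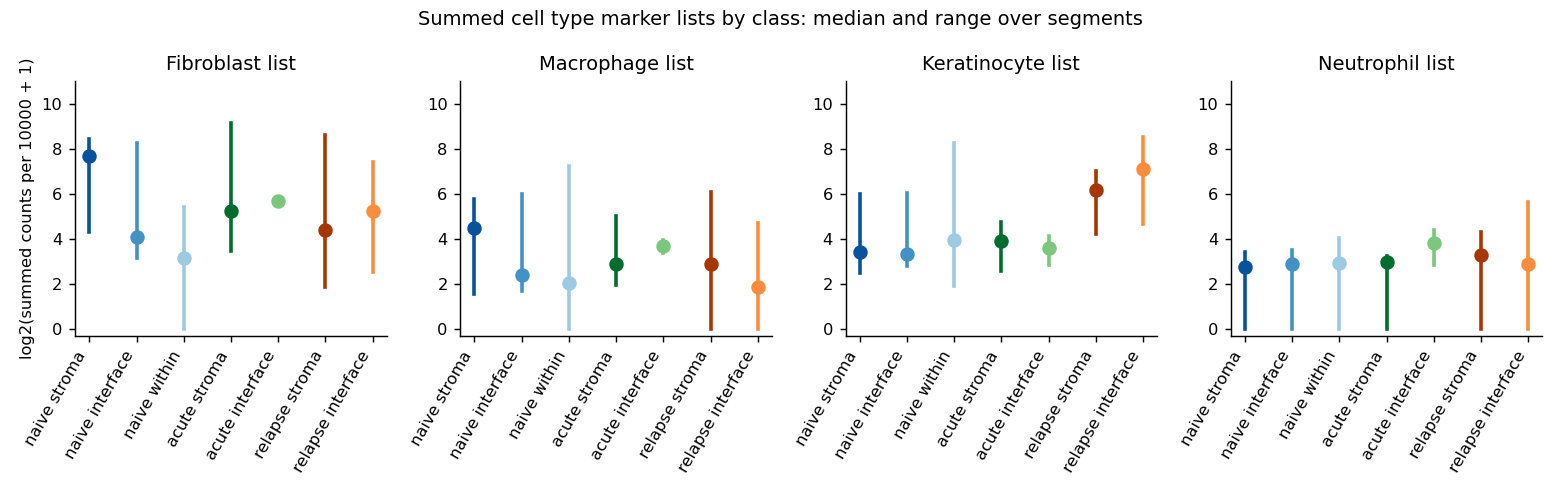
Points are medians and lines the range over segments of log2(summed counts per 10000 + 1) for 4 marker lists in the 7 classes. The fibroblast and macrophage medians are highest in naive stroma, the keratinocyte medians in the relapse classes, and the neutrophil medians lie between 5.83 and 13.2 counts per 10000 before the log.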

How the data were processed

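The deposited matrix holds the authors' normalised signal for each target and segment, and a ratio per segment, the authors' upper-quartile factor, is deposited beside it. Signal times this ratio was whole within 1e-06 for 99.986% of values, and these are the counts used here. The smallest was 1, and how that floor was set, the aligner and the counter are not given in the sources used here. The submitters' processing notes name mm10 and Seurat. The limit of quantitation was the larger of 2 counts and the deposited negative-probe mean times its geometric SD, a ratio, to the power 2. The negative-probe target was left out, and 22 annotation columns with values per segment were not used. Class means over all 89 segments were fitted with limma 3.58.1 in R 4.3.3 (trend, two-sided) on log2(signal + 1), adjusted by Benjamini-Hochberg over 5087 targets at 0.05; the fit was tested on simulated data. No label says that segments came from separate animals. The 6 genes and all gene lists were chosen with earlier results of these data known. Named genes are the 6 in all 9 comparisons, up to 4 called list genes with the largest change, and the targets most like the 6. Genes named elsewhere are fibroblast markers: a marker at the floor in every segment of a class, those with the largest pooled levels, and examples that differed little between classes. Alternatives were the scale, depth, pseudocount 4, no filter, the classes fitted and plate; those by tissue piece were added after the data were seen.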

Additional observations from a re-analysis of the deposited data

Results flagged for a closer look

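The step from stroma to interface differed between the relapse and naive slides for 5 of the 6 genes, by limma's interaction term on the deposited signal. The values were 2.30 for Postn, 2.20 for Sparc, 2.03 for Mmp2, 1.49 for Dcn and 1.26 for Lum on the log2 scale. With each segment brought to the same total the values were 2.55, 2.18, 1.94, 0.94 and 0.91 in the same order and none of the 5 passed. None passed either on the deposited signal without naive piece 5 or without relapse piece 1, and slide and stage cannot be told apart. In relapse stroma each of these genes was at the floor in 6 to 9 of 14 segments. A fall towards the interface therefore had less room to show there, and the part of the floor in the interaction was not tested.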

How the results depend on the processing

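The planned count-model alternative was not run. The check for recovered reads used a common step for all segments, while the scaling factor differs between segments, so the deposited values did not pass it. In the smallest segments a low level of these genes could not be seen, as 1 count was worth 2.80 per 10000 at the median depth of the relapse interface. Higher levels could still show, as a relapse stroma segment of 2282 counts had all 6 genes above the floor. The 24 differences called on the deposited signal kept their sign under all alternatives run; 16 stayed called at equal totals, 22 with depth as a covariate, 24 with pseudocount 4, 23 without the filter, 22 with only the classes compared, 0 of 7 with plate as a covariate, 20 with tissue piece as a random block and 4 of the 12 that could be fitted with piece as a fixed term. All 6 genes had their highest median in naive stroma on counts per 10000, and 0 on raw counts.

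For members called, the naive interface gave 0 of 6 with piece as a fixed term and 3 to 6 with a piece left out. Relapse against naive stroma gave 0 with plate as a covariate, beside 8 targets called in place of 71, and 2 to 5 with a piece left out. Acute against naive stroma gave 0 to 3 with a piece left out. Relapse against acute stroma gave 0 at equal totals, with depth, with plate or with a random block for piece, 1 with only the classes compared or on plate H only, and 0 to 3 with a piece left out. The interaction gave 0 at equal totals and 0 to 6 with a piece left out. The cause was not tested.

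Differences not called, and near 0, changed sign as follows. Within the naive tumour against the interface, Dcn was -0.43 and Fn1 -0.45 at equal totals, Dcn -0.0093 with pseudocount 4, and Dcn -0.13 and Fn1 -0.19 with piece as a fixed term. With a piece left out, Dcn there ran from -0.37 to 0.21, Lum from -0.56 to 0.078 and Fn1 from -0.076 to 0.25. At the relapse interface against stroma, Fn1 was 0.019 with piece as a random block, and Sparc 0.17 and Fn1 0.19 with it as a fixed term. With a piece left out, Sparc ran from -0.42 to 0.13, Lum from -0.56 to 0.011, Fn1 from -0.18 to 0.20, Postn from -0.22 to 0.88 and Mmp2 from -0.25 to 0.21. Postn in acute against naive stroma ran from -1.13 to 0.11 with a piece left out, and Lum in relapse against acute stroma from -0.65 to 0.057. At the interface between relapse and naive, Dcn was -0.34, Lum -0.36 and Mmp2 -0.30 at equal totals, Mmp2 -0.031 with pseudocount 4 and -0.10 with piece as a random block, and Dcn -0.17 with plate. With a piece left out, Sparc there ran from -0.34 to 0.57, Dcn from -0.21 to 0.45, Lum from -0.54 to 0.28, Postn from -0.22 to 0.71 and Mmp2 from -0.46 to 0.25.

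Over all alternatives the targets called ran from 11 to 678 at the naive interface against 563 on the deposited signal, from 54 to 206 within the naive tumour (186), from 0 to 1473 between those classes (3), from 0 to 162 in acute against naive stroma (1), from 8 to 106 in relapse against naive stroma (71), from 6 to 2597 in relapse against acute stroma (78), from 7 to 11499 at the interface between relapse and naive (497) and from 3 to 263 for the interaction (213). The counts of 1473, 2597 and 11499 came without the filter, where most targets are at the floor. On the deposited signal, 7 targets were higher and 64 lower in relapse against naive stroma, and 23 and 83 at equal totals. Against acute stroma the split was 45 and 33, and 30 and 38 at equal totals.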
